A study of Mus musculus with 9 samples.

Results

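The genes described here are 37 genes of cholesterol, fatty acid and phospholipid synthesis, taken by name from a list and found among the 29995 genes of the table without immunoglobulin (Ig) genes. They comprise 5 sterol regulators, 15 sterol enzymes, 10 genes of fatty acid synthesis, desaturation and elongation, and 7 genes of phospholipid synthesis. The rule for membership uses no measured value, but members and lists were chosen with earlier results of these data known. Their transcripts were compared between naive B cells, activated B cells specific for the antigen, called NP-B cells here, and plasma cells (PCs), with 3 libraries in each group, because the study asked how early activated B cells turn on the genes that later serve antibody secretion. All cells came from spleens of 12-week-old mice of genotype B6.Blimp1GFP/+, in which 1 allele of the Blimp1 gene Prdm1 reports its transcription through green fluorescent protein (GFP). Every animal, including those that gave naive cells, had received 50 µg of NP-LPS in the peritoneum 4 days earlier. NP is the hapten nitrophenyl, and LPS is bacterial lipopolysaccharide, which activates B cells through a Toll-like receptor without T cells. The naive gate took IgD high, B220+ cells without NP binding. The NP-B gate took B220+ cells that had bound NP and were negative for IgD, GFP and CD138. The PC gate took NP-binding, IgD-negative cells with GFP and CD138, whatever their B220. A dump gate removed cells with CD4, CD8a, F4/80 or Ter-119, and NP-binding cells were sorted in 2 rounds. The replicates are 3 mice by the labels, but whether libraries with the same number came from the same mouse is not stated.

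Animal cells make cholesterol and fatty acids from acetyl-CoA. The membrane-bound transcription factors SREBP1 and SREBP2, the products of Srebf1 and Srebf2, switch on most of the enzymes. Scap escorts the SREBPs from the endoplasmic reticulum (ER) to the Golgi for cleavage, and when sterols are plentiful the Insig proteins hold Scap in the ER. SREBP1 is best known for fatty acid genes and SREBP2 for sterol genes. Phosphatidylcholine, the main phospholipid of ER membranes, is built from choline and diacylglycerol through the CDP-choline route. Plasma cells carry an enlarged ER, and lipid synthesis has long been studied in that setting.

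Transcript levels are given in TPM, a length-corrected abundance scaled to a fixed total per library, in the order of libraries 1, 2 and 3. Libraries held 28490300 to 31719400 estimated reads without Ig genes in naive B cells, 34918400 to 38602300 in NP-B cells and 20189900 to 22137400 in PCs. The 10 B cell markers summed to 10043 to 10471 TPM in naive B cells, 7258 to 7748 in NP-B cells and 1850 to 1970.0 in PCs. The 9 PC markers in the table summed to 513 to 608, 1043 to 1299 and 24322 to 25205. Prdm1 itself stood at 1.97 to 3.24, 3.09 to 7.24 and 78.4 to 116 TPM. The third PC library stood apart through transcripts of liver. The 25 liver markers summed to 8920 TPM there, against 66.0 and 67.7 in the other PC libraries and 5.003 to 11.005 in the B cell libraries. Its highest liver transcripts were Apoa2 at 2682, Apoc3 at 1139 and Apoa1 at 798 TPM, and all 25 were above 1 TPM. In the first and second PC libraries, Trf at 37.6 and 42.3 TPM and Apoa2 at 25.2 and 21.6 made up most of the sum. Since liver makes much fatty acid and cholesterol, the members were also fitted without the third PC library. Log2 changes from that fit are given for Scd1, Fads2, Fasn, Chpt1 and Cept1, and its calls for all members. That library also differed from the other PC libraries for further members, as given below. The 10 myeloid markers summed to 12.0 to 13.1 TPM in naive B cells, 76.7 to 94.3 in NP-B cells and 39.4, 50.01 and 134 in PCs. Cd68 was the highest of them in every NP-B library. The third PC library thus also stood apart here, with Lyz2 at 48.2 and S100a8 at 18.7 TPM, and 9 of the 10 above 1 TPM. Cd68, at 35.6 TPM there, was close to the 28.8 and 33.0 TPM of the other PC libraries. Adipocyte markers, which bear on fatty acid genes, summed to 9.51 to 23.6 TPM in all libraries, T cell markers to 5.53 to 11.4, pancreatic acinar markers to 0.592 to 4.29 and erythroid markers to 21.03 to 51.5. The part of other cells in the values below was not tested. In bulk RNA, fewer cells of a type and less RNA per cell cannot be told apart.

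Promoter sequence was examined because SREBPs bind a sterol regulatory element together with the factors NF-Y and Sp1. RefSeq windows from 250 bases before to 50 bases after the start (GRCm38.p6) matched 30 of the 37 genes, and none was found for Fdps, Fdft1, Sqle, Scd1, Scd2, Fads1 and Pcyt2. On both strands, the core TCACNCCAC of the sterol element was found in Hmgcs1 and Pcyt1a only, against 1.44% of all 27025 genes with a window. The NF-Y box CCAAT was in 24 of 30 members and 41.1% of all genes, and the Sp1 box GGGCGG in 24 of 30 and 38.2%. Of the 17 sterol genes with a window, 16 held CCAAT, and Scap was the one that did not. The core TGACGTGG of the unfolded protein response element was in none of the 30 and in 0.714% of all genes. These are matches of letters and no evidence of binding. The 4 windows below are shown because they hold the only TCACNCCAC matches, in Hmgcs1 and Pcyt1a, and because Insig1 and Nsdhl rose in PCs. Capitals mark matches to TCACNCCAC, CCAAT or GGGCGG on either strand, so ATTGG and CCGCCC are their reverse complements.
Hmgcs1 (GRCm38.p6 chr13:119690101-119690400, plus strand): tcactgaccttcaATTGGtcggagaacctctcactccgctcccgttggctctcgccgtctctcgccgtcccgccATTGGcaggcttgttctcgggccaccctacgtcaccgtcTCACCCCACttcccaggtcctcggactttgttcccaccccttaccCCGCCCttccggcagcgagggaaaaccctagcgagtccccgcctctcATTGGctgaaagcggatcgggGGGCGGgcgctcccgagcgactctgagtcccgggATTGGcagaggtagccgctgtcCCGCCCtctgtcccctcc
Insig1 (GRCm38.p6 chr5:28071162-28071461, plus strand): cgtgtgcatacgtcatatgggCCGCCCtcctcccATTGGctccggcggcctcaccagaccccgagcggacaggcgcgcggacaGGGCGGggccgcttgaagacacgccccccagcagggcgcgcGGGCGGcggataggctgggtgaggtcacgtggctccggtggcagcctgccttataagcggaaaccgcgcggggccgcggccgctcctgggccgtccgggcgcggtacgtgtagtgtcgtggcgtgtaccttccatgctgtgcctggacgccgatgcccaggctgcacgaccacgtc
Nsdhl (GRCm38.p6 chrX:72918271-72918570, plus strand): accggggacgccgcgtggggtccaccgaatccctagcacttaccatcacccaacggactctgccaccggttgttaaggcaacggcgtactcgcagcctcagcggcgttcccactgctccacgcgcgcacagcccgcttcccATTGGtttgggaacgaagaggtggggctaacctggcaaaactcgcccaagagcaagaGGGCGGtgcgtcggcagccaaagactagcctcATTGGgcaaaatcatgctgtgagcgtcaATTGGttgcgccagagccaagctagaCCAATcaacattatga
Pcyt1a (GRCm38.p6 chr16:32430671-32430970, plus strand): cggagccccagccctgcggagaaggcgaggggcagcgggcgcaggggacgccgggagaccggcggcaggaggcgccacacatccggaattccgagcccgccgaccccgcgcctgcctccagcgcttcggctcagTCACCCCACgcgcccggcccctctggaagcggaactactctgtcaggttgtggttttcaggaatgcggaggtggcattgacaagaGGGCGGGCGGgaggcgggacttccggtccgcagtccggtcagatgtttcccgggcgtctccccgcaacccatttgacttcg

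Across all 3 comparisons the sterol, fatty acid and phospholipid genes did not move as a block. Of the 37 genes 36 reached 1 TPM in 3 or more libraries and were tested. The exception was the elongase Elovl6, at 0.253 to 0.916, 0.0257 to 0.226 and 0.362 to 1.17 TPM in naive B cells, NP-B cells and PCs. A gene was called, here also "rose" or "fell", when limma gave a change of over 2-fold with a p below 0.05 after Benjamini-Hochberg adjustment over 12892 genes. In NP-B cells against naive B cells 2 members rose (Sqle and Fads1) and 2 fell (Pcyt1a and Lpin1), and 18.5% of all genes tested were called, 8.13% higher and 10.4% lower. From naive B cells to PCs 5 rose (Insig1, Fdps, Nsdhl, Fads1 and Fads2) and 5 fell (Srebf2, Hsd17b7, Acaca, Scd1 and Chka), where 37.8% of all genes were called, 11.4% higher and 26.3% lower. In PCs against NP-B cells 5 rose (Insig1, Fdps, Nsdhl, Fads2 and Pcyt1a) and 6 fell (Hmgcs1, Hsd17b7, Fasn, Scd1, Chka and Cept1), where 32.2% of all genes were called, 9.93% higher and 22.3% lower. Fads1 and Fads2 passed the filter on low values only through the groups in which they were high, Fads1 through NP-B cells and PCs and Fads2 through PCs alone. They are therefore counted here as descriptions, and their values without the filter are given with them below. No single branch supplied all calls, and these shares of all genes are the background against which the counts of members stand. The pairs of comparisons that involve the same group share its libraries.

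Both PC comparisons depend on how the libraries are scaled. The median log2 change of all genes was -0.16, -0.47 and -0.30 in the order of comparisons above, and scalings that centre the bulk of genes (median-of-ratios, TMM or quantile) moved it by up to 0.11, 0.49 and 0.38. Under those scalings 8 to 10 members rose in PCs from naive levels and 2 fell, in place of 5 and 5, and 6 or 7 rose from NP-B levels and 1 fell, in place of 5 and 6. In NP-B against naive B cells 3 or 4 rose and 1 fell, in place of 2 and 2. Against naive B cells as against NP-B cells, the 5 rises in PCs were called under each of these scalings. Among falls, Scd1 in both PC comparisons and Chka against naive B cells were called under each, whereas the falls of Srebf2, Acaca, Hsd17b7, Hmgcs1, Fasn and Cept1, and that of Chka against NP-B cells, missed the 2-fold threshold under all 3. In the table that keeps Ig genes the all-gene median was lower by 0.93 and 0.97 in the PC comparisons. There the rises of Insig1, Fdps and Nsdhl in both PC comparisons, and that of Pcyt1a against NP-B cells, were not called, and Fdps against NP-B cells turned to -0.01. The rise of Fads1 against naive B cells was called there too, and Fads2 did not pass the filter on low values in that table.

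**Figure D1:**
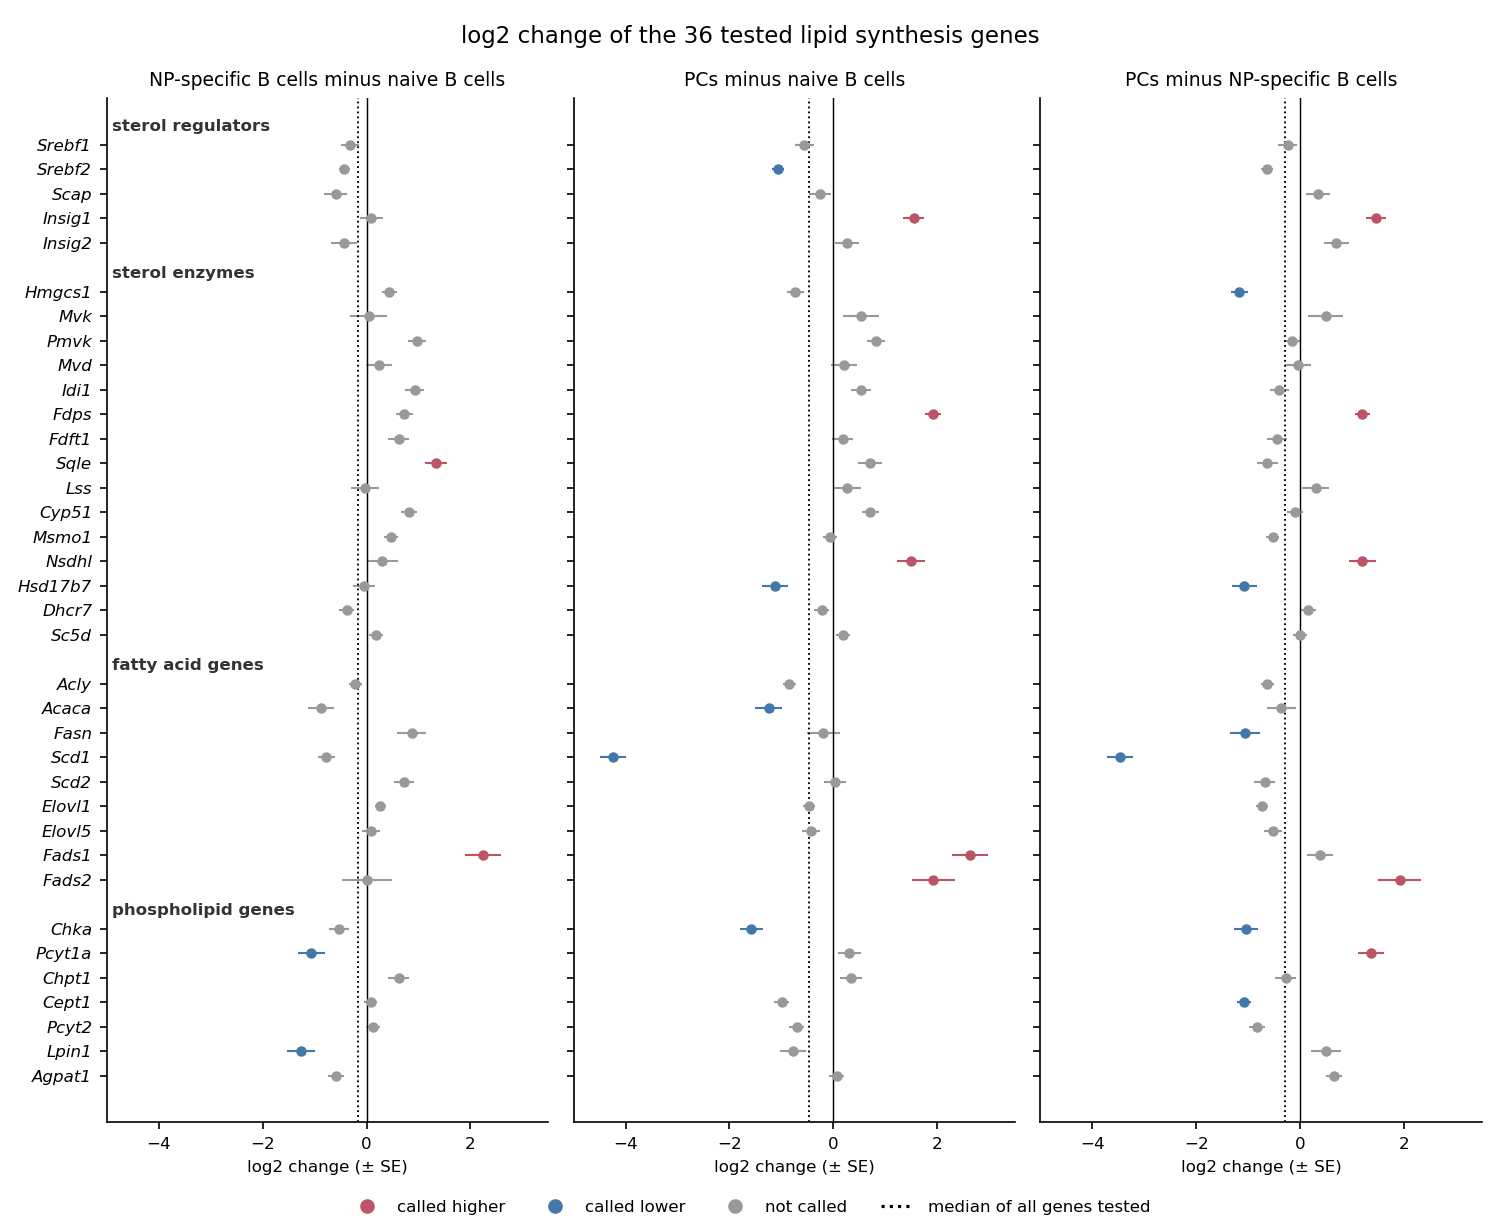
Log2 change with its standard error for the 36 tested genes in each comparison, with genes on the vertical axis ordered by branch and pathway step. Scd1 lies farthest left in both PC panels, at -4.24 and -3.47, and the dotted line marks the median of all genes tested in that comparison.

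Among the sterol regulators, Insig1 rose and Srebf2 fell in PCs, while Srebf1, Scap and Insig2 were not called in any comparison. Insig1 encodes the ER protein that retains Scap and is itself an SREBP target (chr5:28071363-28078662, GENCODE M21 on GRCm38, as for all gene positions here). Its levels were 18.2, 18.1 and 20.2 TPM in naive B cells, 29.2, 16.1 and 17.3 in NP-B cells and 51.4, 64.3 and 53.0 in PCs. All PC libraries lay above all B cell libraries, and the B cell groups overlapped. The log2 change was 1.54 ± 0.20, adjusted p = 5.56e-05 (SE, limma, n = 3 per group) against naive B cells and 1.46 ± 0.20, adjusted p = 9.23e-05 against NP-B cells. Insig2, its paralog, stood at 29.4, 35.6 and 35.8 TPM in naive B cells, 36.02, 26.8 and 15.6 in NP-B cells and 35.3, 43.6 and 42.9 in PCs. Its log2 change from NP-B cells to PCs was 0.70 ± 0.24, adjusted p = 0.0305, under the 2-fold threshold, and the libraries overlapped. It passed the threshold under median-of-ratios, TMM and quantile scaling.

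Srebf2, the gene of the sterol SREBP (chr15:82147181-82205379), stood at 114, 105 and 106 TPM in naive B cells, 78.4, 83.6 and 80.7 in NP-B cells and 47.4, 61.3 and 47.8 in PCs. The 3 groups were ordered without overlap, with naive B cells highest and PCs lowest. On the log2 scale the change was -1.06 ± 0.12, adjusted p = 1.54e-05 in PCs against naive B cells, and just under the 2-fold threshold at -0.97 in the deposited log2 values. It was -0.43 ± 0.11, adjusted p = 0.0102 in NP-B cells against naive B cells, a difference of 1.34-fold. Srebf1 stood at 57.6, 51.0 and 54.7 TPM in naive B cells, 54.8, 44.3 and 34.9 in NP-B cells and 29.8, 42.7 and 39.6 in PCs. PCs lay below naive B cells with no overlap at a log2 change of -0.56 ± 0.18, adjusted p = 0.0194, and NP-B cells overlapped both. Under median-of-ratios scaling that change was -0.07 (adjusted p = 0.786). Scap, the SREBP escort, stood at 27.5, 24.3 and 26.4 TPM in naive B cells, 20.8, 19.9 and 12.3 in NP-B cells and 21.5, 28.3 and 17.3 in PCs, and PCs overlapped both other groups. Insig1 was thus the one regulator with a higher level in PCs that was called, and both SREBP genes had their lowest group mean in TPM there.

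In the sterol pathway, 9 of the 15 enzymes (Hmgcs1, Pmvk, Idi1, Fdps, Fdft1, Sqle, Cyp51, Msmo1 and Sc5d) lay in all NP-B libraries above all naive libraries, a pattern that 23.6% of all genes tested showed, and Dhcr7 lay below, as did 32.4% of all genes. Only Sqle was called. The median log2 change of the 15 was 0.44, beside -0.16 over all genes, and it stayed between 0.41 and 0.55 under the other scalings. Squalene epoxidase, the product of Sqle (chr15:59315077-59331192), adds oxygen to squalene and limits flux through the late pathway. Its levels were 19.9, 15.1 and 15.4 TPM in naive B cells, 52.1, 30.7 and 50.1 in NP-B cells and 27.0, 29.1 and 26.6 in PCs. Every NP-B library lay above every naive and every PC library. The fitted log2 change was 1.34 ± 0.22, adjusted p = 7.80e-04 against naive B cells. In PCs it was 0.70 ± 0.23, adjusted p = 0.0201 against naive B cells, 1.63-fold, with all PC libraries above all naive libraries.

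Pmvk, Idi1 and Cyp51 had the same order of group means as Sqle, below the 2-fold threshold. Pmvk, the second mevalonate kinase, stood at 24.6, 19.9 and 17.997 TPM in naive B cells, 51.5, 35.2 and 38.6 in NP-B cells and 36.6, 38.6 and 36.01 in PCs, and its log2 change in NP-B against naive B cells was 0.97 ± 0.17, adjusted p = 0.00140. Idi1, the isopentenyl diphosphate isomerase, stood at 15.95, 20.6 and 22.5 TPM in naive B cells, 36.6, 33.9 and 43.6 in NP-B cells and 25.1, 25.7 and 35.9 in PCs, with a log2 change of 0.93 ± 0.19, adjusted p = 0.00274. Both came close to 2-fold, and both were called under median-of-ratios and TMM scaling or with the second NP-B library left out. Cyp51, the lanosterol demethylase, stood at 22.4, 23.9 and 24.6 TPM in naive B cells, 48.6, 40.0 and 38.3 in NP-B cells and 42.5, 43.2 and 32.8 in PCs, with 0.81 ± 0.15, adjusted p = 0.00205. Msmo1, the next oxidase, had group means of 44.96 ± 3.00, 63.0 ± 7.30 and 43.4 ± 5.51 TPM (SD, n = 3), and PCs overlapped naive B cells. For Idi1, 27.1% of its 31-base words also occur in transcripts of other genes, most often of the pseudogene Gm13502, so its reads can be split.

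Hmgcs1, which condenses acetoacetyl-CoA to HMG-CoA at the entry of the pathway, fell from NP-B cells to PCs (chr13:119690379-119708260). Its levels were 23.1, 24.1 and 21.6 TPM in naive B cells, 33.4, 30.1 and 30.8 in NP-B cells and 10.8, 15.9 and 14.8 in PCs. NP-B libraries were the highest, PC libraries the lowest, and no groups overlapped. The difference on the log2 scale was -1.17 ± 0.16, adjusted p = 8.76e-05 in PCs against NP-B cells and -0.73 ± 0.16, adjusted p = 0.00247 against naive B cells, the latter 1.66-fold and not called. Under quantile scaling the latter was -0.20 (adjusted p = 0.302). From naive to NP-B cells it was 0.44 ± 0.14, adjusted p = 0.0314. Exons of Hmgcs1 share 12.1% of their bases with Gm48342 on the other strand, whose part in these values was not tested. Mvk, the first mevalonate kinase, had means of 8.46 ± 1.45, 9.60 ± 4.73 and 12.5 ± 2.22 TPM, and Mvd, the decarboxylase, 12.3 ± 0.893, 15.4 ± 5.38 and 14.3 ± 1.37. Neither was called with TPM as deposited.

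Fdps and Nsdhl were the sterol enzymes that rose in PCs with TPM as deposited. Under median-of-ratios, TMM and quantile scaling Pmvk, Sqle and Cyp51 were also called higher in PCs against naive B cells, at log2 changes of 1.13 to 1.32, as were Idi1 and Mvk under the first and last of these. Fdps makes farnesyl diphosphate, the branch point from which sterols, dolichol and protein prenyl groups are built (chr3:89093588-89101959). It stood at 47.8, 48.5 and 36.2 TPM in naive B cells, 91.0, 63.2 and 68.1 in NP-B cells and 161, 181 and 163 in PCs. The groups were ordered without overlap, with PCs highest. Its log2 change was 1.92 ± 0.16, adjusted p = 1.53e-06 in PCs against naive B cells (3.78-fold), 1.19 ± 0.15, adjusted p = 4.27e-05 against NP-B cells and 0.73 ± 0.17, adjusted p = 0.00551 in NP-B against naive B cells, the last under 2-fold. Fdps supplied 32.7% ± 0.130 (SD, n = 3) of the summed TPM of sterol enzymes in PCs, against 13.9% ± 1.91 in naive and 15.5% ± 1.44 in NP-B cells. A share of 24.6% of its 31-base words also occurs in Gm43738, an overlapping gene on the same strand.

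Nsdhl, the C4-decarboxylating dehydrogenase of late sterol synthesis, lies at chrX:72918557-72958514 and shares no 31-base word with another gene. It stood at 13.1, 13.2 and 10.9 TPM in naive B cells, 17.7, 22.7 and 9.05 in NP-B cells and 37.6, 40.5 and 30.4 in PCs. PCs lay above both B cell groups without overlap, while NP-B cells spanned the naive range. The log2 change was 1.499 ± 0.27, adjusted p = 6.93e-04 against naive B cells and 1.19 ± 0.26, adjusted p = 0.00265 against NP-B cells. The latter was not called when the third NP-B library was left out. Hsd17b7, the ketoreductase that follows Nsdhl in the same removal of the C4 methyl groups, went the other way (chr1:169949535-169969241). Its levels were 4.88, 6.37 and 5.50 TPM in naive B cells, 6.14, 4.04 and 6.21 in NP-B cells and 2.29, 2.10 and 2.48 in PCs. PCs lay below both B cell groups, which overlapped. Its log2 change was -1.12 ± 0.25, adjusted p = 0.00234, against naive B cells, and -1.07 ± 0.25, adjusted p = 0.00360, against NP-B cells. The latter was not called without the first or the third NP-B library. Adjacent steps of the pathway thus differed in opposite directions in PCs.

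The remaining sterol enzymes had closer group means. Lss, the lanosterol synthase, had means of 11.5 ± 1.49, 11.7 ± 4.4003 and 14.2 ± 3.45 TPM in naive B cells, NP-B cells and PCs. Dhcr7, the last reductase, had 28.7 ± 3.58, 22.01 ± 2.47 and 24.5 ± 0.842, and Sc5d, the lathosterol desaturase, 30.2 ± 1.71, 34.6 ± 2.26 and 34.7 ± 4.74. None of these was called. Fdft1, the squalene synthase, had 15.3 ± 1.51, 24.4 ± 6.66 and 17.4 ± 1.61 TPM, with a log2 change of 0.62 ± 0.20, adjusted p = 0.0283 in NP-B against naive B cells. Its exons overlap those of Ctsb on the other strand over 18.3% of their bases, and the library kit does not mark strand. Ctsb stood at 51.5 ± 1.34, 101 ± 9.21 and 307 ± 20.7 TPM, and its part in the Fdft1 values was not tested.

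**Figure D2:**
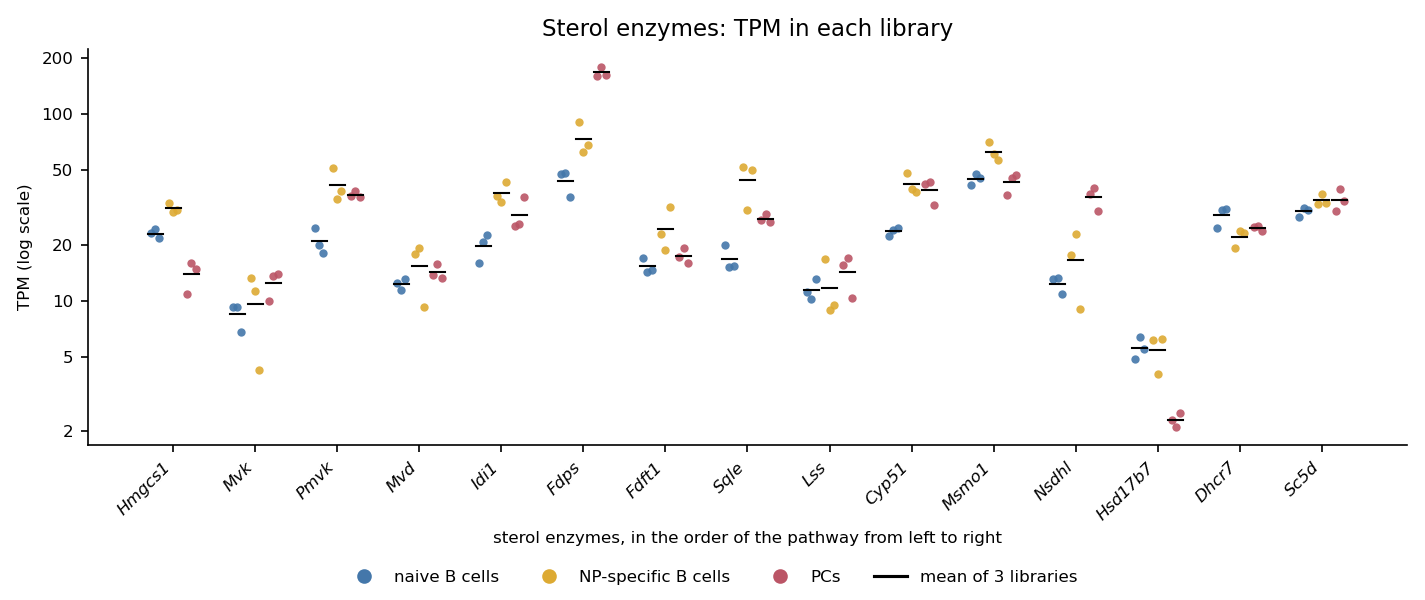
TPM on a log scale for the 15 sterol enzymes in pathway order, 1 point per library, colored by group, with the mean of 3 libraries as a bar. Fdps and Nsdhl have the PC libraries on top, Sqle has the NP-B libraries on top, and Hmgcs1 and Hsd17b7 have the PC libraries lowest.

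Among fatty acid genes, Scd1 fell in PCs by the largest amount of any member, while the front-end desaturases Fads1 and Fads2, both low in naive B cells, stood higher in PCs. Scd1 encodes stearoyl-CoA desaturase, which makes oleate and palmitoleate (chr19:44394455-44407879). By group mean it was the most abundant of the 37 genes in naive and in NP-B cells, whereas in PCs Fdps was. Its levels were 209, 227 and 253 TPM in naive B cells, 122, 141 and 141 in NP-B cells and 9.06, 8.21 and 21.3 in PCs. The 3 groups did not overlap, and the highest PC library was the third, the one with liver transcripts. On the log2 scale the change was -4.24 ± 0.25, adjusted p = 1.38e-07 in PCs against naive B cells (18.9-fold lower) and -3.47 ± 0.26, adjusted p = 9.51e-07 against NP-B cells. Without the third PC library these were -4.66 (adjusted p = 3.18e-08) and -3.88 (adjusted p = 1.37e-07). In NP-B against naive B cells the log2 change was -0.77 ± 0.17, adjusted p = 0.00467, 1.71-fold and not called. Under quantile normalization that change was called, at -1.08 (adjusted p = 0.00157).

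Scd2, the neighbouring paralog (chr19:44293674-44306864), did not follow Scd1. It stood at 20.6, 22.03 and 30.2 TPM in naive B cells, 40.9, 46.1 and 33.8 in NP-B cells and 24.3, 30.7 and 19.995 in PCs. NP-B libraries lay above all others, and PCs overlapped naive B cells. Its log2 change was 0.72 ± 0.20, adjusted p = 0.0139 in NP-B against naive B cells and 0.03 ± 0.21, adjusted p = 0.905 in PCs against naive B cells. Scd1 made up 91.0, 91.1 and 89.3% of the TPM of both genes in naive B cells, 74.9, 75.4 and 80.7% in NP-B cells and 27.2, 21.1 and 51.5% in PCs. The share was lower in every PC library than in any B cell library, with the third PC library highest among PCs. Of the 31-base words of Scd1 and Scd2, 8.18% and 6.81% also occur in other genes, most often in Scd3.

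Fads1, the delta-5 desaturase of polyunsaturated fatty acids (chr19:10182888-10196877), stood at 0.699, 0.810 and 0.748 TPM in naive B cells, 4.81, 5.60 and 6.005 in NP-B cells and 4.81, 8.29 and 9.55 in PCs. All NP-B and all PC libraries lay above all naive libraries, and those 2 groups overlapped. The fitted log2 change was 2.24 ± 0.35, adjusted p = 5.92e-04 in NP-B cells and 2.63 ± 0.34, adjusted p = 6.03e-05 in PCs against naive B cells. Since the fit adds 0.5 to a low TPM, these values understate the ratio of the means, 5.47 ± 0.605 and 7.55 ± 2.46 against 0.753 ± 0.0558 TPM. Fads2, the delta-6 desaturase (chr19:10062765-10101746), stood at 0.234, 0.335 and 0.293 TPM in naive B cells, 0.334, 0.511 and 0.0987 in NP-B cells and 1.96, 1.72 and 4.43 in PCs. PCs lay above both B cell groups, which overlapped. It rested on 4.01 to 109 estimated reads per library, and only the PC libraries reached 1 TPM, so the filter admitted it through the group in which it was high. The difference on the log2 scale was 1.93 ± 0.41, adjusted p = 0.00199 against naive B cells and 1.92 ± 0.41, adjusted p = 0.00229 against NP-B cells. The third PC library was 2.40 times the mean of the other PC libraries for Fads2. Without it the log2 changes were 1.57 and 1.56, in a fit on the same genes. Fads2 would then fail the filter of 1 TPM in 3 or more libraries, so these values are descriptions. Fitted on all libraries with no filter on low values, Fads2 was called in PCs at 1.93 (adjusted p = 0.00159) against naive B cells and 1.92 (adjusted p = 0.00191) against NP-B cells. In that fit Fads1 was called against naive B cells at 2.24 (adjusted p = 8.70e-04) in NP-B cells and 2.63 (adjusted p = 8.97e-05) in PCs.

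The genes that make palmitate from citrate were level or lower in PCs. Acly, which splits citrate to acetyl-CoA, stood at 79.6, 76.1 and 91.1 TPM in naive B cells, 80.8, 62.3 and 70.9 in NP-B cells and 44.4, 47.4 and 44.95 in PCs. PCs lay below all other libraries, at a log2 change of -0.85 ± 0.13, adjusted p = 1.70e-04 against naive B cells, 1.80-fold and not called. Across the alternatives that change lay between -2.03 and -0.35, and it was called only in the table with Ig genes. Acaca, the acetyl-CoA carboxylase that commits carbon to fatty acids (chr11:84129672-84401651), stood at 9.64, 11.99 and 12.2 TPM in naive B cells, 5.12, 8.47 and 4.68 in NP-B cells and 4.96, 5.50 and 3.25 in PCs. Naive libraries lay above all others. Its log2 change was -1.24 ± 0.26, adjusted p = 0.00168 in PCs and -0.88 ± 0.25, adjusted p = 0.0154 in NP-B against naive B cells, and only the former was called. A share of 31.7% of its 31-base words also occurs in the pseudogene Gm5182. Fasn, the fatty acid synthase (chr11:120805846-120824547), stood at 6.63, 4.60 and 4.72 TPM in naive B cells, 14.1, 8.63 and 8.27 in NP-B cells and 6.74, 3.76 and 3.68 in PCs. NP-B libraries lay above all others, and PCs overlapped naive B cells. The log2 change was 0.87 ± 0.28, adjusted p = 0.0302 in NP-B against naive B cells, 1.82-fold and not called, and -1.06 ± 0.29, adjusted p = 0.00931 in PCs against NP-B cells. That fall was not called without the third PC library, at -0.92 (adjusted p = 0.0368), nor without the first NP-B or the second PC library.

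Elongases differed less. Elovl1, which extends very long saturated chains, had means of 102 ± 5.06, 124 ± 12.7 and 73.8 ± 5.09 TPM in naive B cells, NP-B cells and PCs. PCs lay below the other groups without overlap, at log2 changes of -0.47 and -0.73, and the former was 0.03 under median-of-ratios scaling. Elovl5, which extends polyunsaturated chains, had 49.3 ± 1.65, 53.1 ± 9.10 and 37.1 ± 8.19. Neither was called. Elovl1 shares 1.94% of its exonic bases with Cdc20 on the other strand, which stood at 11.6 ± 1.16, 177 ± 51.5 and 170.2 ± 29.7 TPM.

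In the CDP-choline route to phosphatidylcholine, the first enzyme fell in PCs, and the second was lowest in NP-B cells. Chka, the choline kinase (chr19:3851773-3894369), stood at 25.3, 19.4 and 21.4 TPM in naive B cells, 16.6, 18.1 and 11.4 in NP-B cells and 7.32, 6.05 and 7.88 in PCs. The 3 groups did not overlap, with naive B cells highest and PCs lowest. On the log2 scale the change was -1.58 ± 0.22, adjusted p = 9.61e-05 in PCs against naive B cells, -1.04 ± 0.23, adjusted p = 0.00247 against NP-B cells and -0.53 ± 0.19, adjusted p = 0.0448 in NP-B against naive B cells. The first of these was called under all 20 alternatives, and the second was not called when the first or second NP-B library or the second PC library was left out.

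Pcyt1a, the rate-limiting enzyme of the route, which joins phosphocholine to CTP (chr16:32430921-32475070), stood at 9.58, 10.4 and 8.60 TPM in naive B cells, 4.81, 5.94 and 2.78 in NP-B cells and 10.9, 14.1 and 10.999 in PCs. NP-B libraries lay below all others, and PC libraries above all naive libraries by a narrow margin. Its log2 change was -1.06 ± 0.25, adjusted p = 0.00707 in NP-B against naive B cells and 1.37 ± 0.25, adjusted p = 7.46e-04 in PCs against NP-B cells. The first of these missed the 2-fold threshold under all 3 other scalings and without the second naive or the third NP-B library. In PCs against naive B cells it was 0.31 ± 0.22, adjusted p = 0.243. Exons of Pcyt1a share 9.09% of their bases with Slc51a and 2210020O09Rik on the other strand, whose part in these values was not tested.

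The last step is shared by Chpt1, the cholinephosphotransferase, and Cept1, which also makes phosphatidylethanolamine. Chpt1 stood at 16.2, 16.1 and 19.3 TPM in naive B cells, 29.3, 26.3 and 25.1 in NP-B cells and 19.6, 17.5 and 30.9 in PCs. NP-B libraries lay above all naive libraries at a log2 change of 0.62 ± 0.20, adjusted p = 0.0307, under 2-fold. PCs overlapped both, but only the third PC library reached the NP-B range. Without it the PC libraries lay below all NP-B libraries, at a log2 change of -0.52 (adjusted p = 0.0184), not called. Cept1 (chr3:106502260-106547802) stood at 69.6, 73.6 and 74.9 TPM in naive B cells, 79.2, 69.0 and 84.0 in NP-B cells and 37.1, 42.4 and 30.3 in PCs. PCs lay below both B cell groups. The fitted log2 change was -1.08 ± 0.14, adjusted p = 6.41e-05 against NP-B cells, and -0.95 (adjusted p = 2.00e-04) without the third PC library, which was not called. Against naive B cells it was -0.999 ± 0.14, adjusted p = 9.92e-05, with a fold just under 2. Exons of Cept1 share 24.9% of their bases with Dennd2d and Dram2 on the other strand. Dennd2d stood at 72.3 ± 1.84, 48.2 ± 4.39 and 20.1 ± 2.05 TPM in naive B cells, NP-B cells and PCs, and Dram2 at 59.1 ± 4.57, 92.2 ± 8.56 and 73.5 ± 9.98. Dennd2d was lowest in PCs as Cept1 was, and its part in the Cept1 values was not tested.

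Pcyt2, which joins phosphoethanolamine to CTP, had means of 107 ± 5.63, 119.8 ± 26.6 and 65.8 ± 3.09 TPM in naive B cells, NP-B cells and PCs. PCs lay below all other libraries at a log2 change of -0.71 ± 0.15, adjusted p = 0.00181 against naive B cells, 1.63-fold and not called. That change was -0.21 (adjusted p = 0.220) under median-of-ratios scaling. Lpin1, a phosphatidate phosphatase that makes diacylglycerol, stood at 2.54, 3.15 and 3.98 TPM in naive B cells, 1.15, 0.912 and 1.05 in NP-B cells and 1.42, 1.59 and 1.98 in PCs. The groups did not overlap, and naive libraries were highest. It fell in NP-B against naive B cells, at -1.27 ± 0.27, adjusted p = 0.00397, and was not called there under quantile normalization. Agpat1, the acyltransferase that makes phosphatidate, stood at 30.2, 28.1 and 28.1 TPM in naive B cells, 16.7, 20.2 and 20.7 in NP-B cells and 32.5, 33.2 and 25.8 in PCs. NP-B libraries lay below all others, with a log2 change of -0.59 ± 0.15, adjusted p = 0.0107 against naive B cells and of 0.65 ± 0.15, adjusted p = 0.00366 from them to PCs. The latter was called under median-of-ratios scaling, at 1.04, and under quantile normalization, at 1.05. In TPM, Pcyt1a, Lpin1 and Agpat1 were thus lowest in NP-B cells, while Chka, Cept1 and Pcyt2 were lowest in PCs.

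**Figure D3:**
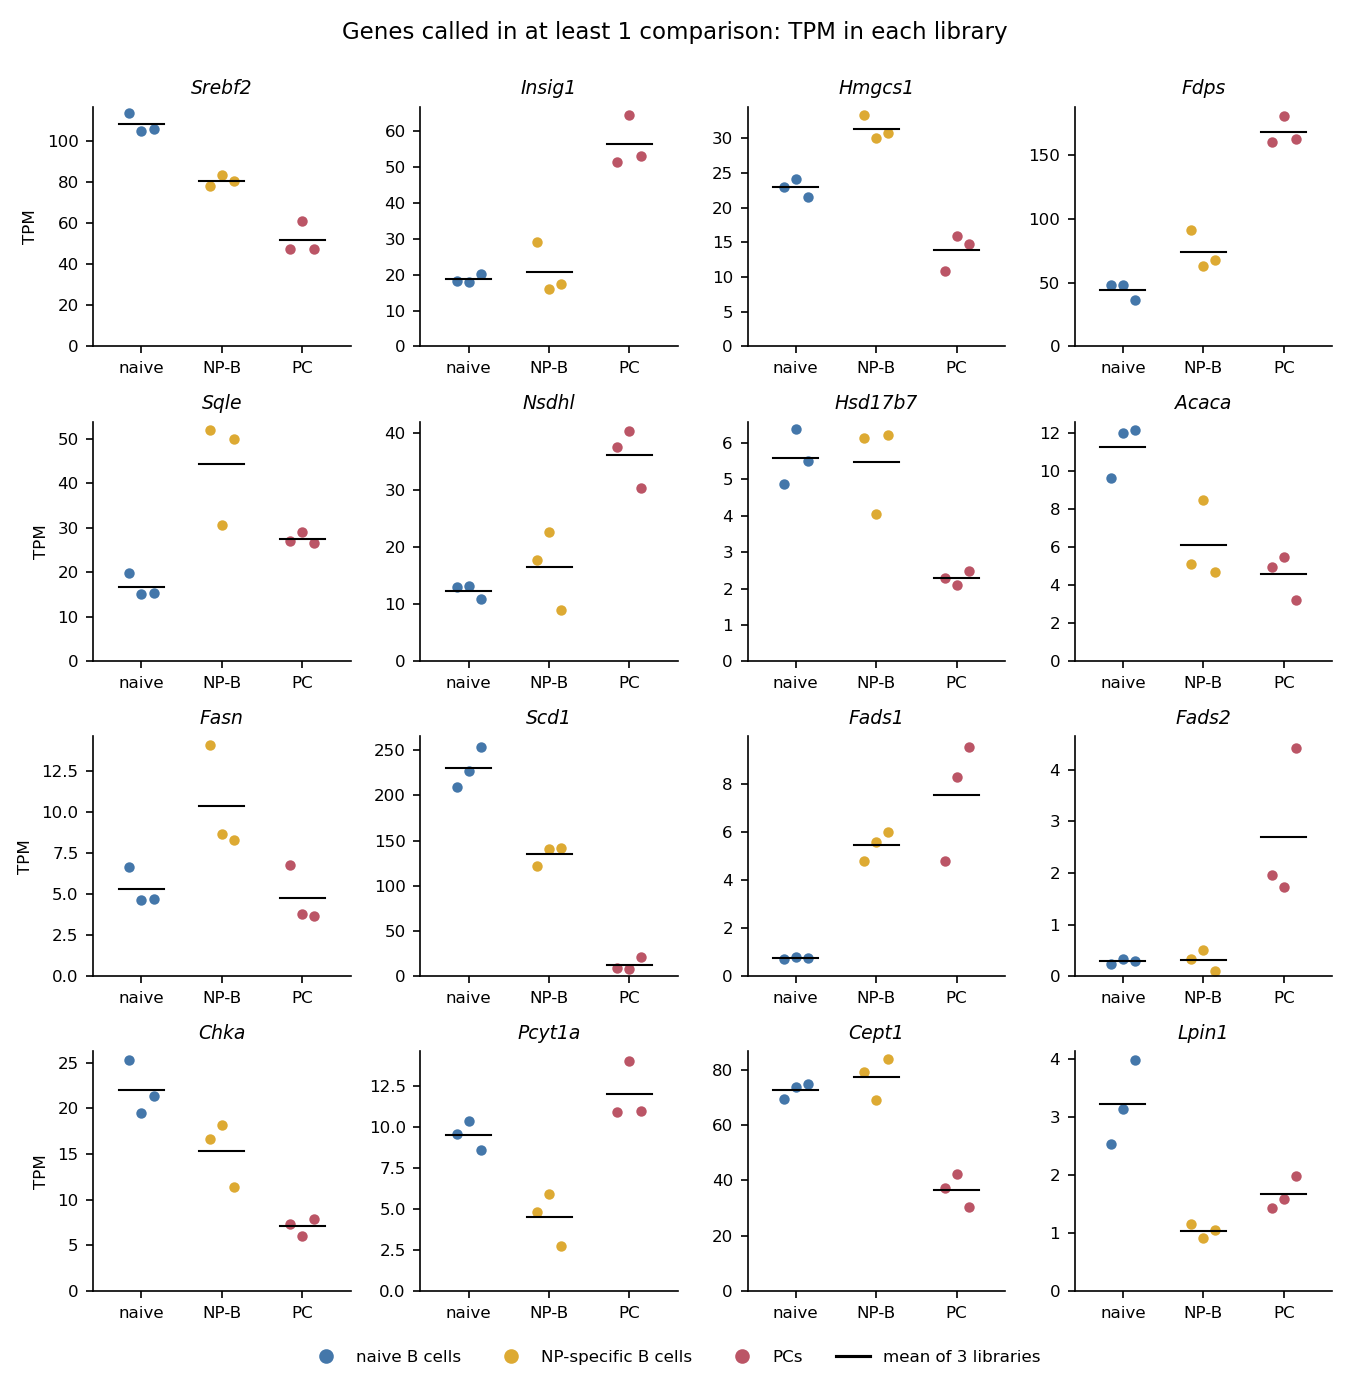
TPM of the 16 genes called in at least 1 comparison, 1 point per library with the group mean as a bar, each panel on its own linear axis from 0. Scd1 and Chka step down from naive B cells (naive) over NP-B cells (NP-B) to PCs (PC), and Fdps steps up.

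Summed over a branch in TPM without Ig genes, sterol enzyme transcripts were more abundant in both NP-binding groups, and fatty acid and phospholipid transcripts were less abundant in PCs. The 15 sterol enzymes summed to 316, 326 and 309.8 TPM in naive B cells, 531, 440.0 and 453 in NP-B cells and 491, 552 and 501 in PCs. Naive libraries were lowest, and the other groups overlapped. With Fdps left out the means were 273 ± 4.85, 401 ± 34.5 and 346 ± 21.6, so NP-B cells then had the highest mean. The 10 fatty acid genes summed to 484, 491 and 542 TPM in the naive libraries, 448, 444 and 445 in the NP-B libraries and 207, 229.6 and 208 in the PC libraries, and PC libraries were lowest. Scd1 alone held 45.4% ± 1.85 of that sum in naive B cells and 4.38, 3.57 and 10.2% in PCs, where the third library was highest. Without Scd1 the means were 276 ± 12.3, 311 ± 12.9 and 202 ± 17.9. The 7 phospholipid genes summed to 267, 256 and 259 TPM in the naive libraries, 298, 242 and 252 in the NP-B libraries and 174, 184 and 171 in the PC libraries, and PC libraries were again lowest. These sums are descriptions without a test, they follow the abundant genes, and they were not computed under the other scalings, which shift PCs as given above.

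**Figure D4:**
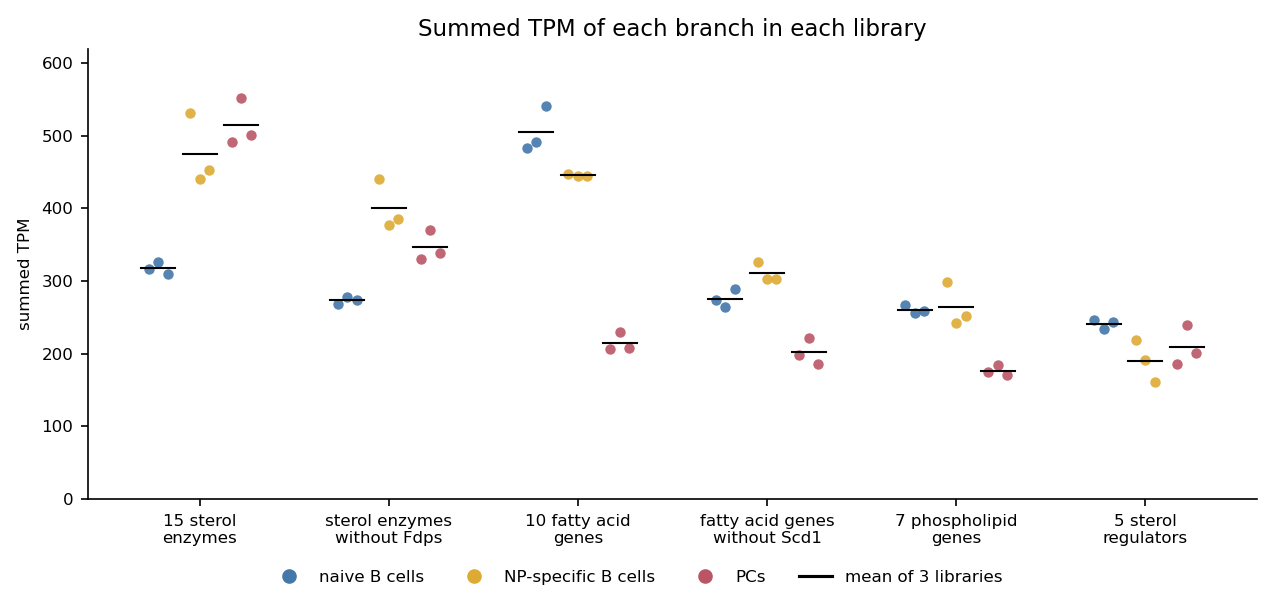
Summed TPM of each branch in each library, with the mean of 3 libraries as a bar, on a linear axis from 0. Sterol enzyme sums are lowest in the naive libraries, and fatty acid and phospholipid sums are lowest in the PC libraries.

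Median log2 changes weigh the genes of a branch equally. In PCs against naive B cells the median was 0.27 for sterol enzymes, -0.25 for regulators, -0.43 for fatty acid genes and -0.71 for phospholipid genes, beside -0.47 for all genes tested. Under the other 3 scalings the regulators' median became positive, at 0.17 to 0.24, and that of fatty acid genes lay between -0.12 and 0.06. In PCs against NP-B cells the medians were -0.10, 0.34, -0.63 and -0.28 in the same order, beside -0.30, and those of sterol enzymes and phospholipid genes became positive under the other scalings. In NP-B against naive B cells they were 0.44, -0.43, 0.08 and -0.53, beside -0.16, with the same signs under each scaling. Of the 36 members tested, 12 lay in PCs above and 13 below all naive libraries, while 69.7% of all genes did not overlap, 21% above and 48.7% below. Against NP-B cells 7 lay above and 13 below, where 58.2% of all genes did not overlap, 17.3% above and 40.9% below. In NP-B against naive B cells 14 lay above and 9 below, where 55.9% of all genes did not overlap.

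Other genes of the same pathways, 88 in the table and 69 tested, were taken from a list for context. Of these, 4 rose and 8 fell in NP-B against naive B cells, 7 rose and 17 fell in PCs against naive B cells, and 4 rose and 13 fell in PCs against NP-B cells, where 18.5%, 37.8% and 32.2% of all genes tested were called.

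Of the other sterol genes, Acat2, the thiolase before Hmgcs1, rose in NP-B cells from 20.8 ± 0.619 to 47.0 ± 13.4 TPM, at 1.11 ± 0.20, adjusted p = 0.00128, and stood at 15.2 ± 1.35 in PCs. That rise was not called without the first NP-B library. Ebp, the sterol isomerase that follows Hsd17b7, stood at 61.4, 56.7 and 57.9 TPM in naive B cells, 84.3, 79.5 and 88.3 in NP-B cells and 221, 227 and 228 in PCs. PCs lay above all others, at a log2 change of 1.93 ± 0.09, adjusted p = 2.02e-08 against naive B cells. Tm7sf2, a sterol reductase, had means of 9.80 ± 0.783 and 5.15 ± 3.06 TPM in naive and NP-B cells. Its call at -1.02 ± 0.34, adjusted p = 0.0354 was lost in 13 of 19 alternatives. Sp1, the factor whose box was searched above, had 19.1 ± 0.933, 8.80 ± 1.02 and 7.96 ± 1.04 TPM, with -1.22 ± 0.16, adjusted p = 6.65e-05 in PCs against naive B cells, under 2-fold with the other scalings.

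Genes that move cholesterol changed in both directions. Abcg1, a cholesterol exporter and target of the sterol-sensing LXR receptors, stood at 42.8, 43.6 and 44.8 TPM in naive B cells, 46.3, 27.1 and 32.0 in NP-B cells and 3.92, 3.85 and 2.80 in PCs. PCs lay below all others, at -3.48 ± 0.26, adjusted p = 9.88e-07 against naive B cells. Abca1, the other LXR-driven exporter, fell in both NP-binding groups. It stood at 21.0 ± 2.19 TPM in naive B cells, 3.99 ± 0.776 in NP-B cells and 2.97 ± 0.220 in PCs, at -2.27 ± 0.19, adjusted p = 1.01e-05 in NP-B against naive B cells. Stard4, which carries cholesterol between membranes, rose in both, from 7.39 ± 0.911 to 16.8 ± 2.58 and 15.4 ± 1.25 TPM, at 1.12 ± 0.18, adjusted p = 8.09e-04 and 1.01 ± 0.18, adjusted p = 7.44e-04, and the latter was lost without the first or second naive or the first or second PC library and was -0.12 in the table with Ig genes. Npc2, which hands cholesterol out of lysosomes, rose in PCs from 32.6 ± 1.62 to 101 ± 16.2 TPM, at 1.60 ± 0.16, adjusted p = 7.85e-06. With Ig genes in the table, the rises of Ebp, Npc2 and Tecr in PCs were not called.

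In the fatty acid context, Tecr, the last reductase of chain elongation, rose in PCs from 195 ± 10.7 to 503 ± 22.3 TPM, at 1.36 ± 0.10, adjusted p = 7.11e-07. Mid1ip1, a partner of acetyl-CoA carboxylase, fell from 30.8 ± 2.86 to 8.40 ± 2.70 TPM, at -1.86 ± 0.25, adjusted p = 7.06e-05. Ptpla (Hacd1), an elongation dehydratase, fell in NP-B cells from 24.9 ± 4.36 to 9.48 ± 2.96 TPM, at -1.38 ± 0.32, adjusted p = 0.00572. In the phospholipid context, the order of the choline transporters was opposite in PCs. Slc44a2 stood at 187, 169 and 192 TPM in naive B cells, 159.7, 126 and 119 in NP-B cells and 7.94, 7.17 and 5.98 in PCs, and PCs lay below all others at -4.62 ± 0.20, adjusted p = 1.06e-08 against naive B cells. Slc44a1 stood at 3.19, 1.90 and 1.96 TPM in naive B cells, 7.21, 0.886 and 0.812 in NP-B cells and 29.6, 29.6 and 27.7 in PCs, and PCs lay above all others at 3.39 ± 0.44, adjusted p = 5.62e-05. Slc44a2 held 98.7% ± 0.358 of the TPM of both transporters in naive B cells and 19.5% ± 1.70 in PCs. Agpat5, an acyltransferase, rose in NP-B cells at 1.69 ± 0.22, adjusted p = 1.85e-04 and in PCs at 2.20 ± 0.21, adjusted p = 6.47e-06, from 4.32 ± 0.197 to 15.4 ± 3.49 and 21.7 ± 1.11 TPM. Agpat9 (Gpat3), which acylates glycerol phosphate, fell from 14.8 ± 1.35 to 3.71 ± 0.503 TPM in NP-B cells, at -1.87 ± 0.28, adjusted p = 4.50e-04.

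The third PC library was set against the other PC libraries for every member. It was the highest of the 3 for 11 members, the lowest for 17 and between them for 9. It exceeded the mean of the others most for Scd1 (2.46 times) and Fads2 (2.40 times), followed by Elovl6 (1.71 times), Chpt1 (1.67 times) and Fads1 (1.46 times), and fell farthest below it for Acaca (0.621 times). Without that library, and with the genes tested kept the same, the same 10 members were called against naive B cells. Against NP-B cells 9 were called, with Fasn and Cept1 lost. Both counts include Fads2, which would not pass the filter on low values without that library. Pemt, a liver enzyme that makes phosphatidylcholine by methylation and belongs to the context list, stood at 4.51, 6.25 and 74.4 TPM in PCs. For Scd1 and Fads2 the part of liver RNA in the third library's excess was not tested. Scd1 was called without that library, as given above. For Fads2 no call is drawn from the other PC libraries alone, since the filter admitted it through all 3.

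**Figure D5:**
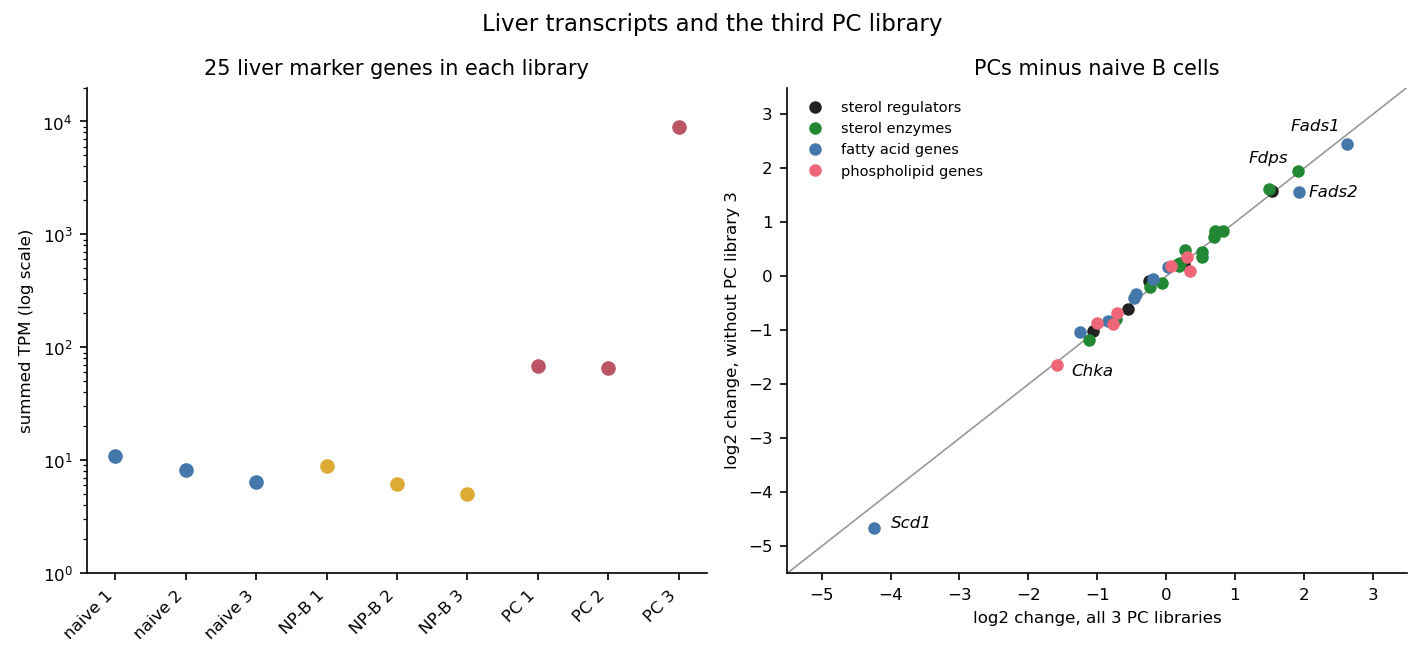
Left, summed TPM of 25 liver marker genes in each library on a log scale, with the third PC library at 8920. Right, log2 change in PCs against naive B cells with all PC libraries (horizontal) and without the third (vertical), 1 point per gene and the diagonal as a line, where Scd1 and Fads2 lie farthest from the diagonal.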

How the data were processed

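RNA was measured by sequencing in 9 libraries, 3 each from sorted naive B cells, NP-specific B cells (NP-B cells) and PCs. Libraries were made from poly(A) RNA through cDNA synthesis that keeps no strand mark. The authors quantified reads with kallisto and deposited TPM per gene, once for all genes and once without Ig genes, together with normalized log2 expression values. limma and the mm10 build are named in the submitters' processing notes, without versions. The deposited TPM values without Ig genes were used, and the deposited log2 values served as an alternative. The version of the annotation behind the values is not given in the sources used here.

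Testing used limma 3.58.1 in R 4.3.3 on genes that reached 1 TPM in 3 or more libraries, on log2(TPM + 0.5), with precision weights and 1 fit over all 3 groups, with Benjamini-Hochberg adjustment over all 12892 genes. A change is on that log2 scale, which understates the change of low genes. Calls needed an adjusted p under 0.05 and a fold over 2. The code was tested on simulated data. Further values came from Python 3.11.15 with pandas 2.3.3, and figures from matplotlib 3.10.9. Gene positions and 31-base words were taken from GENCODE M21 (GRCm38, the same build as mm10) and promoters from RefSeq. The p-values measure the spread between libraries, which stand for 3 mice by the labels. Estimated reads per gene in a library fell below the floor of 3 for no member, and this covers counting error only.

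All members were accounted for, with every library's value for the sterol regulators and for genes called in at least 1 comparison. Of the context genes, those named were, in each list, the called genes with the largest rise and fall against naive B cells, and some context genes are not reported here. Of markers, the highest 3 were named in a library that stood apart. Pemt, further marker values and further values of members not called were added after values were seen. Members and lists were chosen with earlier results of these data known. Alternatives covered scaling, pseudocount, filter, the table with Ig genes, the deposited log2 values, a replicate block and each library left out.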

Additional observations from a re-analysis of the deposited data

How the results depend on the processing

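Of 9 library correlations between equal replicate numbers, none was over 0.1 (-0.075 to 0.068), so the numbers were not used as pairs; whether they mark the same mouse is not stated. With a replicate block the members called numbered 4, 10 and 11, as without it, in NP-B against naive B cells, PCs against naive B cells and PCs against NP-B cells. A mean TPM of at least 10, which left 29 members to test, gave 1, 6 and 7. TMM scaling gave 7 in PCs against NP-B cells. The table with Ig genes gave 20 in PCs against naive B cells (1 higher, 19 lower) and 23 against NP-B cells (0 higher, 23 lower). Leaving out 1 library gave 3 to 7, 10 to 11 and 8 to 11, and the 7 came without the second NP-B library. The filter on low values was not applied anew in these fits. With Ig genes, values of the other sign were -0.36 for Pmvk, -0.64 for Idi1, -0.46 for Sqle, -0.47 for Cyp51 and -0.12 for Stard4 in PCs against naive B cells, and -0.47 for Insig2, -0.0050 for Fdps, -0.51 for Agpat1, -0.63 for Agpat5 and -0.32 for Tecr against NP-B cells. Elovl1 in PCs against naive B cells was 0.026 under median-of-ratios scaling. The cause was not tested. Single gene values under alternatives were tallied for members and named context genes, only where the main adjusted p was under 0.05. Of these values, 1761 kept direction and side of the threshold, 55 passed it anew, 89 no longer did and 11 turned. Changes with a higher main adjusted p, such as Mvk in PCs against naive B cells, are outside this tally. Elovl6 and Fads2 rest on as few as 4.88 and 4.01 estimated reads in a library, which limits their precision.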
